A study of Bos taurus with 90 samples.

Results

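The striated muscle miRNAs miR-1, miR-133a, miR-133b and miR-499 were followed through 5 tissues of dairy cows. They were taken by name, 4 of the 388 miRNAs listed in any of the 5 tissues, and all 4 were listed in each tissue. The 90 small RNA libraries came from liver, mammary gland and the digestive tract (rumen, duodenum and jejunum) of mid-lactation Chinese Holstein cows, with 18 libraries per tissue. Each of 18 cows gave a sample of all 5 tissues, so libraries of different tissues are not from separate animals, but the labels do not tie libraries to cows. Within each tissue 6 libraries came from cows whose forage was rice straw, 6 from cows given corn stover and 6 from cows given alfalfa hay. All groups were lactating cows on a forage-based ration, so no untreated group exists and each comparison sets tissues or forages against each other. The labels name the rumen, duodenum and jejunum samples as epithelium, but each library is a bulk tissue sample with no sorting of cells.

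miR-1 and miR-133a are cut from shared primary transcripts, which in heart and skeletal muscle are under the control of serum response factor and the myogenic factors. miR-1 drives muscle cells to mature, miR-133a is known for restraining it and for acting on smooth muscle genes of the heart, miR-133b is made together with miR-206 in skeletal muscle, and miR-499 is encoded in an intron of a slow myosin heavy chain gene. Smooth muscle, which forms the wall of the gut, also makes miR-1 and miR-133 at lower levels than striated muscle, while epithelial cells and hepatocytes are not among their main known sources. In the bovine RefSeq table of the ARS-UCD2.0 assembly, MIR1-1 lay within 12 kb of MIR133A-1, MIR1-2 lay within 12 kb of MIR133A-2 inside MIB1, MIR133B lay within 12 kb of MIR206, and MIR499 lay inside MYH7B. The table was used for names and neighbours only. miR-133a and miR-133b are near-identical and miR-1 resembles miR-206, so reads could have been shared within each pair and the separate values are uncertain to that extent.

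Levels are given as CPM, the reads of a miRNA scaled to a common total of reads mapped to all annotated miRNAs. Mapped reads recovered from the CPM ranged from 937556 to 15621501 per library with a median of 5778304.5, so that 3 reads were worth between 0.192 and 3.20 CPM. The 4 shallowest mammary gland libraries (rice straw replicates 1, 4 and 5 and alfalfa hay replicate 1) held fewer than 3000000 reads, and mammary gland rice straw replicate 3 and rumen alfalfa hay replicate 1 had the highest value of the tissue in 56 of 328 and 51 of 340 miRNAs. Values without these libraries are given where they change a call of a member. The tissue labels were checked against marker miRNAs. miR-122, the hepatocyte miRNA, ranged from 8671 to 12721 CPM in liver and from 0 to 48.5 CPM in mammary gland, and was not listed elsewhere. The intestinal epithelial miR-192, miR-194 and miR-215 summed to at least 144396 CPM in duodenum and jejunum and to at most 4561 CPM in rumen. Liver held 122056 to 195995 CPM of them, so this sum did not set the intestine apart from liver. miR-205 of stratified epithelium was at 23016 to 52132 CPM in rumen, where it marks the squamous lining, and was not listed in jejunum. In liver it reached 1525 CPM in alfalfa hay replicate 2 against at most 12.997 CPM in the other 17 libraries, and the miR-200 family of epithelium summed to 1896 CPM there against at most 737 CPM. That liver library also held the highest miR-499 of the tissue, 7.31 CPM, while 12 libraries held more miR-1 (it had 1.29 CPM) and as many held more miR-133a (137 CPM). Without it no call of the 4 miRNAs between liver and another tissue or between forages in liver changed (limma).

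The 4 miRNAs together were a small part of each library, with medians of 309 CPM in jejunum, 242 CPM in duodenum, 162 CPM in liver, 148 CPM in mammary gland and 71.9 CPM in rumen. miR-133a made up most of that sum, with a median of 70.5% in rumen and between 85.6% and 95.1% in the other 4 tissues. By its median, miR-133a ranked between place 106 of 337 in jejunum and place 162 of 340 in rumen. miR-133b, which differs from it by little in sequence, was between place 250 of 337 in jejunum and place 337 of 340 in rumen. Mature miRNAs are of nearly equal length, so CPM were compared between miRNAs without a length correction.

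miR-1, which promotes muscle differentiation, was highest in the small intestine and close to the counting floor in rumen. Its level ranged from 7.19 to 23.6 CPM in duodenum with a median of 16.2, and from 5.61 to 27.2 CPM in jejunum with a median of 15.3. Liver held 0.341 to 3.97 CPM with a median of 2.07, and rumen 0 to 12.03 CPM with a median of 1.22. Every duodenum and jejunum library lay above every liver library. The share of all miRNAs that separated groups without overlap was not counted, here or in the results below. In mammary gland the range was 0 to 429.5 CPM around a median of 4.23 CPM, and 1 library made up most of the mean of 28.3 ± 100 CPM (SD, n = 18). Few reads stood behind the low values, with 3 or fewer in 4 rumen, 3 liver and 3 mammary gland libraries.

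The design implies a comparison of each pair of tissues, which was made by limma on log2(CPM + 1) with Benjamini-Hochberg adjustment over all miRNAs of the pair. These differences understate the change of low miRNAs because of the added 1 CPM. Over all miRNAs the tissues differed widely: 75.8% of those tested passed in duodenum against rumen, 73.8% in jejunum against rumen, 84.5% in liver against rumen and 71.9% in mammary gland against rumen. The share was 24.2% in jejunum against duodenum, 85% in liver against duodenum, 75.9% in mammary gland against duodenum, 85.3% in liver against jejunum, 70.5% in mammary gland against jejunum and 65% in mammary gland against liver. Of 40 member comparisons, 32 passed, 10 of 10 for miR-133a, 8 of 10 for miR-133b and 7 of 10 each for miR-1 and miR-499, which is near that background. Each result on a tissue is of bulk RNA, where fewer cells of a type and less RNA per cell cannot be told apart.

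For miR-1, duodenum was above rumen by 2.84 ± 0.21 on the log2 scale (SE, adjusted p = 1.17e-15, limma) and jejunum by 2.63 ± 0.23 (adjusted p = 2.44e-13, limma). Duodenum and jejunum did not pass against each other, with a difference of -0.21 and a 95% interval from -0.57 to 0.15 (adjusted p = 0.435, limma). Liver was below duodenum by a difference of -2.48 ± 0.18 and below jejunum by -2.26 ± 0.20. The difference of 0.37 between liver and rumen did not pass (interval -0.09 to 0.82, adjusted p = 0.127, limma), and it passed at 0.51 without rumen alfalfa hay replicate 1 (adjusted p = 0.00960). Mammary gland was 1.31 ± 0.44 above rumen and differed from duodenum by -1.53 ± 0.42. The count model, edgeR on the recovered reads, gave 0.82 for the latter with the opposite sign (adjusted p = 0.217), and 0.99 in place of -1.32 for mammary gland against jejunum (adjusted p = 0.148). Both values take in the mammary gland library at 429.5 CPM (rice straw replicate 3), and without it edgeR gave -1.74 and -1.58. By limma without it, mammary gland differed by 0.95 from rumen (adjusted p = 0.00550), -1.90 from duodenum and -1.69 from jejunum. Against liver the difference with all libraries was 0.95 ± 0.43, just over the threshold (adjusted p = 0.0508, limma). Without rice straw replicate 3 the difference of 0.58 did not pass by limma (adjusted p = 0.0706) and that of 1.16 by edgeR did (adjusted p = 0.00408).

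**Figure D1:**
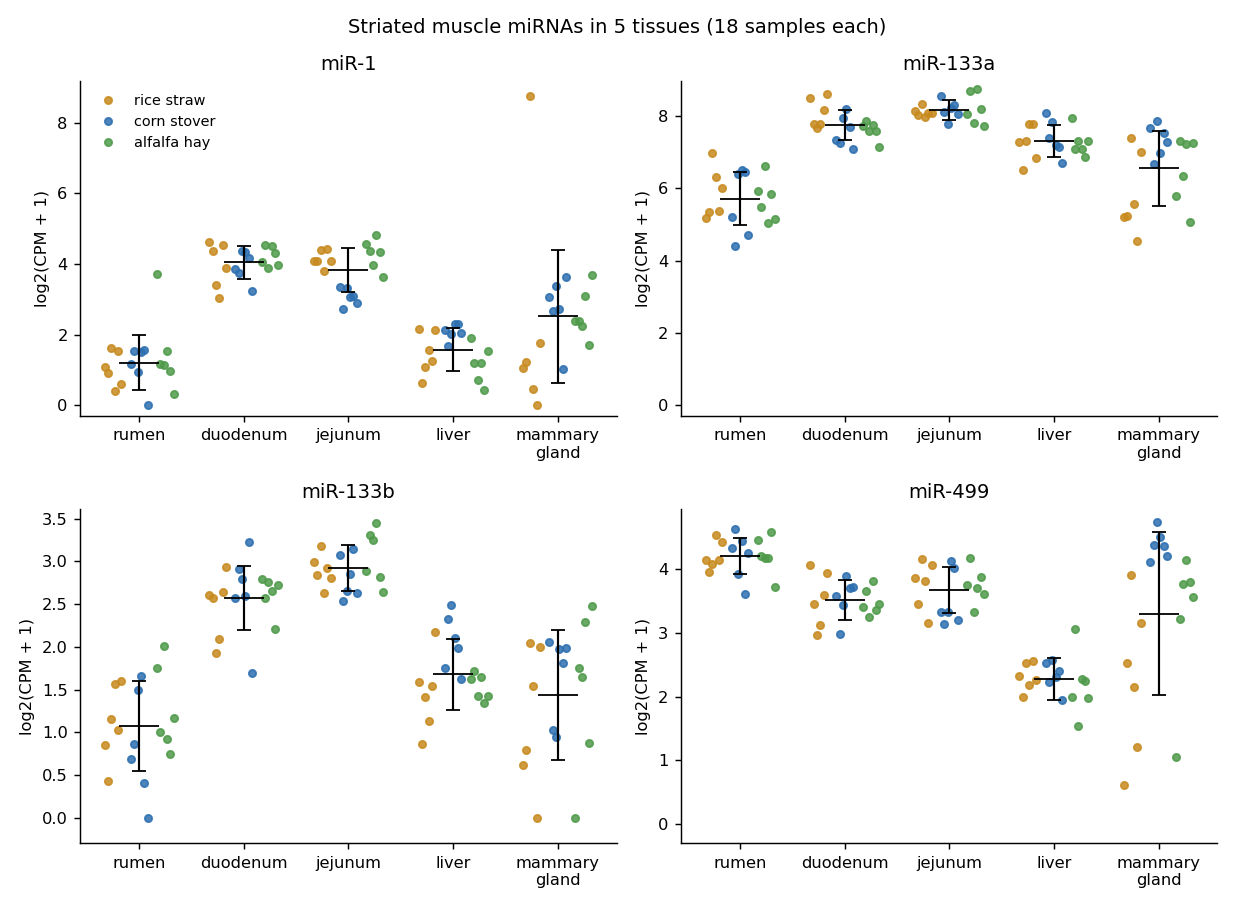
Level of each striated muscle miRNA as log2(CPM + 1) in 18 samples per tissue, coloured by forage, with horizontal bars for the tissue mean and vertical bars for the SD. miR-1, miR-133a and miR-133b were highest in duodenum and jejunum by their medians, miR-499 was highest in rumen and lowest in liver, and 1 mammary gland sample reached 429.5 CPM of miR-1.

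miR-133a, the partner of miR-1 on the shared transcript, was also highest in the small intestine, with liver next and not mammary gland. It ranged from 211 to 432 CPM in jejunum with a median of 275, and from 136 to 388 CPM in duodenum with a median of 213. Liver held 90.7 to 273 CPM with a median of 156, and mammary gland 22.3 to 233 CPM with a median of 126. In rumen the range was 20.2 to 126 CPM with a median of 49.8, below every duodenum and jejunum library.

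Neighbours in this order all passed the test. Jejunum was 0.41 ± 0.12 above duodenum on the log2 scale (adjusted p = 0.00973, limma), but not without alfalfa hay (0.31, adjusted p = 0.158) or without corn stover (0.32, adjusted p = 0.154). Liver was below duodenum by a difference of -0.45 ± 0.14 (adjusted p = 0.00296, limma), which turned to 0.04 under upper-quartile scaling. Mammary gland was below liver by a difference of -0.76 ± 0.26 (adjusted p = 0.0110, limma), and the difference was -0.39 without the 4 shallow libraries (adjusted p = 0.111). Against rumen, jejunum was higher by 2.45 ± 0.18, liver by 1.59 ± 0.19 and mammary gland by 0.83 ± 0.29. The last missed the threshold without corn stover (0.39, adjusted p = 0.332, limma).

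The median ratio of miR-133a to miR-1 CPM differed between tissues. Over libraries with at least 3 reads of miR-1 it was 12.7 in duodenum (9.59 to 30.6), 18.2 in jejunum (11.8 to 49.2) and 21.7 in mammary gland (0.389 to 175). In rumen it was 39.6 (5.02 to 91.2) and in liver 81.6 (33.1 to 247). The liver ratios all lay above those of duodenum, while those of jejunum and liver overlapped. These ratios are a description, since the yield of a library differs between miRNA sequences, and 4 rumen, 2 liver and 3 mammary gland libraries were left out for low counts.

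**Figure D2:**
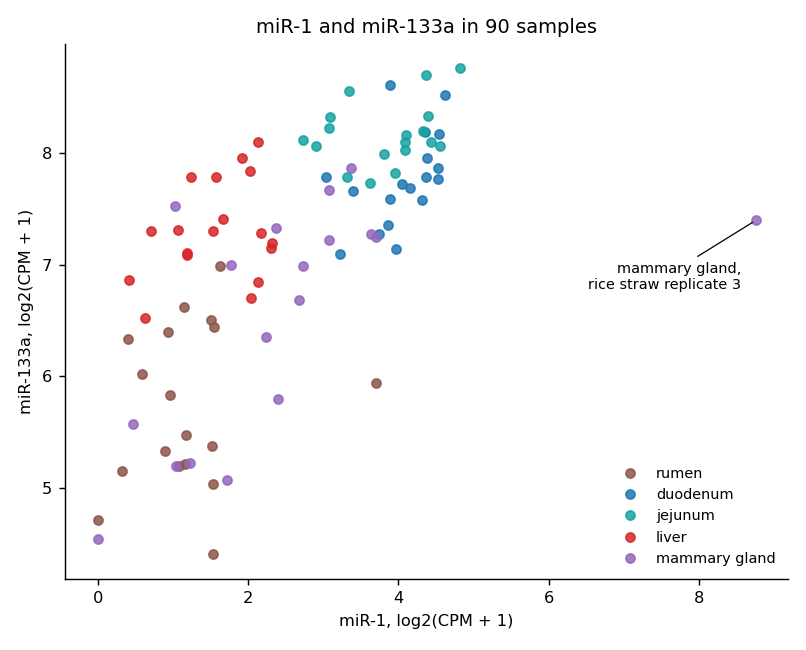
miR-1 against miR-133a, each as log2(CPM + 1), with 1 point per sample and colour for the tissue. The mammary gland rice straw replicate 3 library lies apart at 429.5 CPM of miR-1 with 167 CPM of miR-133a, and the liver points sit above most rumen points.

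miR-133b, the skeletal muscle copy, followed miR-133a at a level lower by more than an order of magnitude. It ranged from 4.81 to 9.87 CPM in jejunum with a median of 6.28, and from 2.22 to 8.32 CPM in duodenum with a median of 5.17. The medians were 2.26 CPM in mammary gland (0 to 4.57), 2.08 CPM in liver (0.817 to 4.59) and 1.02 CPM in rumen (0 to 3.03). Jejunum did not overlap with rumen, liver or mammary gland. Jejunum was 0.35 ± 0.11 above duodenum (adjusted p = 0.0166, limma), a call lost without rice straw (0.31, adjusted p = 0.0968) or without alfalfa hay (0.31, adjusted p = 0.158), and 1.85 ± 0.14 above rumen (adjusted p = 6.99e-15, limma). Mammary gland did not pass against liver, with a difference of -0.24 and an interval from -0.65 to 0.17. Nor did it pass against rumen at 0.36 (interval -0.07 to 0.80, adjusted p = 0.124, limma), where it did at 0.62 without the 4 shallow libraries (adjusted p = 0.00378). Liver was 0.60 ± 0.16 above rumen (adjusted p = 0.000656, limma), but at 0.31 without corn stover it did not pass (adjusted p = 0.0885).

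miR-499, encoded within the slow myosin gene MYH7B, had another order of tissues. Rumen was highest, with 11.2 to 23.7 CPM and a median of 17.2. Mammary gland spread from 0.533 to 25.7 CPM around a median of 12.8, jejunum from 7.79 to 17.1 CPM around 12.2, and duodenum from 6.85 to 15.8 CPM around 10.4. Liver was lowest, with 1.90 to 7.31 CPM and a median of 3.81, below every rumen and jejunum library. Liver was below rumen by a difference of -1.93 ± 0.11 (adjusted p = 4.19e-19, limma) and below jejunum by -1.39 ± 0.12 (adjusted p = 8.32e-14, limma). Duodenum was below rumen by a difference of -0.69 ± 0.11 and jejunum by -0.54 ± 0.12. Mammary gland was below rumen by a difference of -0.91 ± 0.29 (adjusted p = 0.00585, limma), and the value was -0.32 without the 4 shallow libraries (adjusted p = 0.0749) and -0.54 by edgeR (adjusted p = 0.0666). The order of mammary gland, jejunum and duodenum was not fixed by these data: the differences of mammary gland were -0.37 against jejunum (interval -0.96 to 0.23) and -0.22 against duodenum (interval -0.81 to 0.37). Without the 4 shallow libraries these turned to 0.22 and 0.37.

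**Figure D3:**
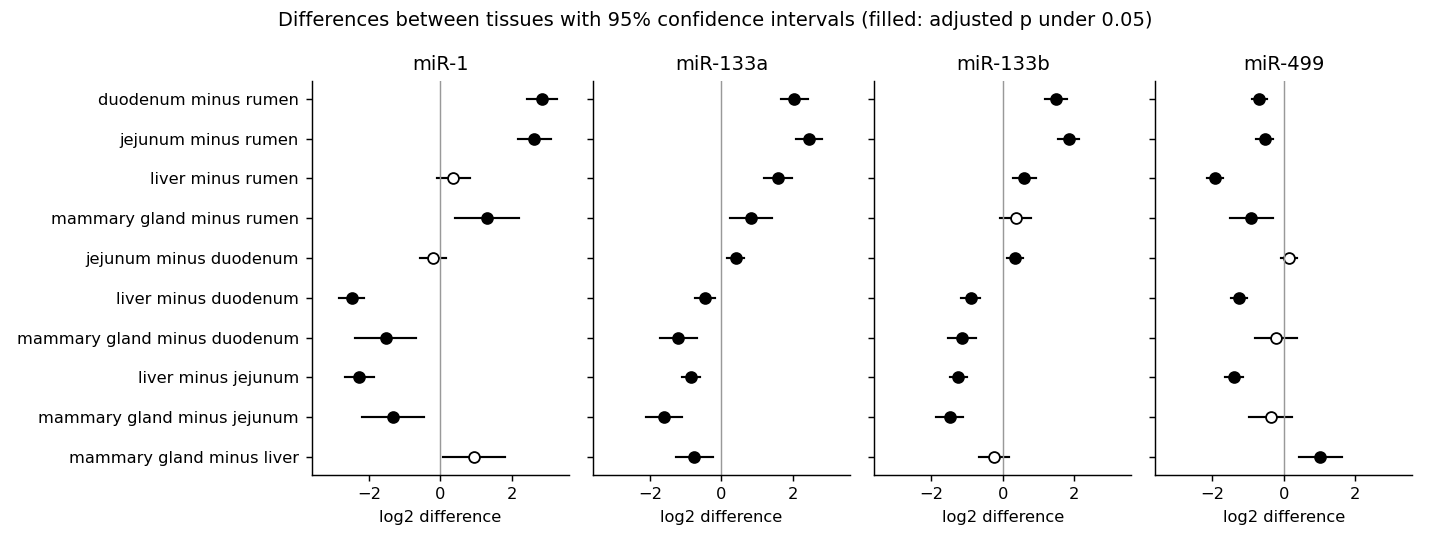
Differences between tissues in log2(CPM + 1) for each striated muscle miRNA, with 95% confidence intervals and filled points for an adjusted p under 0.05 by limma. miR-1, miR-133a and miR-133b lie to the right of 0 for duodenum and jejunum against rumen, and miR-499 lies to the left of 0 for all 4 tissues against rumen.

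The other miRNAs of the striated muscle list were also examined. miR-133c, miR-206, miR-208a and miR-208b were not listed in any of the 5 tissues and so have no values here. miR-486, which is found in muscle and also in red blood cells, was listed. miR-486 was 3.26 ± 0.26 higher in liver than in rumen (adjusted p = 2.10e-14, limma) and 2.32 ± 0.21 higher in liver than in jejunum (adjusted p = 4.86e-13, limma), which is not the order of any of the 4 miRNAs. The smooth muscle miRNAs miR-143 and miR-145 summed to at least 70758 CPM in every library, with medians of 207207 CPM in jejunum, 182260 CPM in rumen, 156743 CPM in duodenum, 126145 CPM in mammary gland and 124814 CPM in liver. Neither passed in duodenum against rumen, where miR-1 and miR-133a did. Both were lower in liver than in rumen, where miR-133a was higher. They were also lower in mammary gland than in rumen, where miR-1 and miR-133a were higher. Both were lower in liver than in duodenum or jejunum, and in mammary gland than in jejunum. There miR-1 and miR-133a were lower too (limma). In jejunum against rumen 1 of the 2 was higher, as were miR-1 and miR-133a. The part of smooth muscle in these differences was not tested.

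The forages were compared within each tissue by a limma F test, for which 23.8% of miRNAs passed in jejunum, 3.72% in mammary gland, 1.49% in rumen, and 0% in duodenum and 0% in liver. At an unadjusted p under 0.05 there were 36 of 336 in duodenum and 17 of 326 in liver, and edgeR also called 0 in both, with 34 and 24. Of 20 member tests, miR-1 in jejunum and miR-499 in mammary gland passed.

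In jejunum, miR-1 was lower under corn stover than under either other forage. The 6 corn stover libraries held 9.15, 5.61, 8.92, 7.43, 7.52 and 6.51 CPM of miR-1, from 48 to 90 reads each. Rice straw libraries ranged from 13.1 to 20.5 CPM with a median of 16.1, and alfalfa hay libraries from 11.3 to 27.2 CPM with a median of 19.4. No corn stover library overlapped with the others, though how many of all miRNAs separated in this way was not counted. The F test gave an adjusted p of 8.43e-05 (limma), at place 13 of 336 miRNAs. Corn stover differed from rice straw by -1.08 ± 0.19 on the log2 scale (adjusted p = 0.000293, limma), and from alfalfa hay by -1.20 ± 0.19 (adjusted p = 7.77e-05, limma). These contrasts passed for 28.6% and 22% of all miRNAs. A permutation test of the forage labels over the 18 samples gave p = 8e-05.

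The other members did not follow miR-1 in jejunum. miR-133a was at 253 to 320 CPM under rice straw, 220 to 375 CPM under corn stover and 211 to 432 CPM under alfalfa hay, and corn stover differed from rice straw by 0.06 ± 0.17 (adjusted p of the F test = 0.880, limma). The ratio of miR-133a to miR-1 was 24.6 to 49.2 under corn stover, against 11.8 to 21.0 under the other forages. miR-133b and miR-499 did not pass, with adjusted p of 0.470 and 0.6005 (limma). Corn stover replicates 1, 2 and 6 held 281, 440 and 221 CPM of miRNAs that jejunum does not list, against at most 72.6 CPM in the other jejunum libraries. Without these 3 libraries the differences of miR-1 were -0.99 ± 0.23 (adjusted p = 0.00880, limma) against rice straw and -1.12 ± 0.23 (adjusted p = 0.00352, limma) against alfalfa hay.

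Markers of other cells moved with the forage in jejunum. miR-126-3p and miR-126-5p of endothelium, 2 of 2 on that list, passed the F test and summed to 8000 to 17708 CPM under corn stover against 18497 to 29441 CPM under the other forages. Of the smooth muscle pair, miR-145 passed, with a difference of -0.57 ± 0.16 between corn stover and rice straw (adjusted p = 0.0149, limma), and miR-143 did not. The smooth muscle sum was 184453 to 296908 CPM under corn stover against 147053 to 246794 CPM under the others. None of the fibroblast, immune, red blood cell or epithelial markers passed the F test in jejunum, while miR-155 of immune cells passed in corn stover against rice straw at a difference of -0.38 (adjusted p = 0.0277, limma). The part of these cells in the miR-1 result was not tested.

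In mammary gland, miR-499 was higher under corn stover than under rice straw. Corn stover libraries held 16.3, 19.8, 25.7, 21.7, 19.7 and 17.5 CPM of miR-499. The rice straw libraries held 0.533, 4.75, 13.99, 3.43, 1.31 and 7.95 CPM, and the alfalfa hay libraries ranged from 1.07 to 16.7 CPM with a median of 11.7. Corn stover and rice straw did not overlap, and the highest alfalfa hay library reached the lowest of corn stover. How many of all miRNAs kept these forages apart was not counted. The F test gave an adjusted p of 0.0434 (limma), and the difference between corn stover and rice straw was 2.13 ± 0.51 (adjusted p = 0.0116, limma), a contrast that passed for 26.6% of all miRNAs, at a median difference of 0.63 over all of them.

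Shallow libraries bear on the size of this difference. In the 4 libraries under 3000000 reads miR-499 was at 0.533 to 3.43 CPM, and in the other 14 at 4.75 to 25.7 CPM. The same 4 libraries held 573 to 2018 CPM of the immune markers against at least 3106 CPM in the others, 730 to 1648 CPM of the fibroblast markers against at least 2845 CPM, and at most 31850 CPM of the miR-200 family of epithelium against at least 32550 CPM. Their miR-486 was at 3051 to 4051 CPM against at most 2517 CPM, while the red blood cell miRNAs miR-451 and miR-144 had medians of 124 and 1.98 CPM there against 327 and 16.4 CPM in the others. Of 25 markers tested between forages in mammary gland, miR-144 and miR-429 passed the F test (adjusted p = 0.0434 each, limma), with corn stover above rice straw by 2.01 and 2.07. In that contrast 13 of the 25 passed, and all of these but miR-143 were higher under corn stover. They included miR-141 and miR-200b of epithelium, miR-126-3p of endothelium, miR-199a-3p of fibroblasts and miR-150 of immune cells. On the same lists miR-200a, miR-200c, miR-126-5p, miR-199a-5p, miR-199b, miR-214, miR-142-3p and miR-155 did not pass. Of these miR-155 was lower under corn stover, at -0.28 (adjusted p = 0.564, limma). miR-486, on the red blood cell list with miR-144, also did not pass and was lower, at -0.64 (adjusted p = 0.215, limma). The part of these cells and of depth in the miR-499 result was not tested. Without the 4 shallow libraries the difference of miR-499 was 1.19 ± 0.29 (adjusted p = 0.00792, limma) and the F test gave an adjusted p of 0.0240. By edgeR on all 18 libraries the adjusted p of the F test was 0.0885.

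miR-133a in mammary gland was at 22.3 to 167 CPM under rice straw, 101 to 233 CPM under corn stover and 32.6 to 159 CPM under alfalfa hay. Its F test missed the threshold (adjusted p = 0.0921, limma), while corn stover was 1.51 ± 0.48 above rice straw (adjusted p = 0.0298, limma). Without the 4 shallow libraries the difference was 0.79 ± 0.51 (adjusted p = 0.263, limma). miR-133b did not pass in mammary gland, with an adjusted p of 0.669 (limma).

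**Figure D4:**
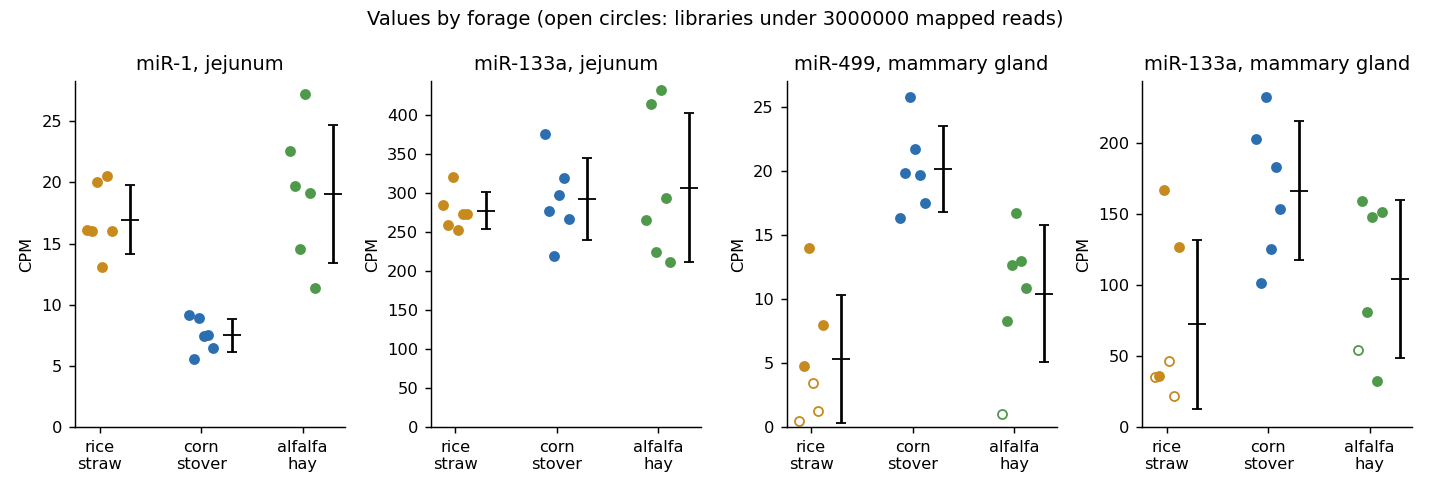
CPM of miR-1 and miR-133a in jejunum and of miR-499 and miR-133a in mammary gland by forage, with 1 point per library, open circles for libraries under 3000000 mapped reads, and bars for the mean and SD (n = 6). Corn stover libraries of jejunum lie at 5.61 to 9.15 CPM of miR-1, below all others, while their miR-133a overlaps with the other forages.

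The difference between tissues in the response to forage was tested by a tissue-by-forage term in each pair, a test chosen after seeing the data. For miR-1 it passed in jejunum against duodenum (adjusted p = 0.0265, limma, where 20.5% of miRNAs passed) and in liver against jejunum (adjusted p = 2.16e-05, limma, 16%), but not in jejunum against rumen (adjusted p = 0.191, limma). The corn stover minus rice straw difference of miR-1 was -1.08 in jejunum, -0.02 in duodenum, 0.09 in rumen and 0.61 in liver. Without jejunum corn stover replicates 1, 2 and 6 the adjusted p against duodenum was 0.156. For miR-499 the term passed for mammary gland against rumen (adjusted p = 0.0388, limma, 8.58% of miRNAs), duodenum (0.0400, 8.68%), jejunum (0.0115, 26%) and liver (0.0422, 7.52%). Against jejunum it did not pass without jejunum corn stover replicates 1, 2 and 6 (adjusted p = 0.101), where the miRNAs called fell from 81 to 6 of 312. Its corn stover minus rice straw difference was 2.13 in mammary gland and between -0.23 and 0.03 in the other 4 tissues.

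In liver, miR-1 was at 2.17 to 3.97 CPM under corn stover, 0.545 to 3.49 CPM under rice straw and 0.341 to 2.78 CPM under alfalfa hay, and its adjusted p was 0.551 (limma). miR-133b in liver had the same adjusted p. All 4 in rumen and all 4 in duodenum missed the threshold, with adjusted p from 0.420 for miR-133a in duodenum to 0.996 for miR-499 in rumen (limma).

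Single libraries stood out for miR-1. Mammary gland rice straw replicate 3 held 429.5 CPM of miR-1, from 3593 reads among 8364602 mapped (95% Poisson interval 416 to 444 CPM, counting error only). The other 5 rice straw libraries of mammary gland ranged from 0 to 2.41 CPM, and the highest of the other 17 mammary gland libraries was at 12.01 CPM. Replicate 3 was 103 times their median of 4.19 CPM, the largest such ratio among the miRNAs of this library. The other members were not high with it: miR-133a was at 167 CPM (1.33 times the median of the others), miR-133b at 3.11 CPM (1.45 times) and miR-499 at 13.99 CPM (1.11 times), each exceeded by another mammary gland library. Its ratio of miR-133a to miR-1 was 0.389, against 12.6 to 175 in the other mammary gland libraries with at least 3 reads of miR-1.

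Besides miR-1, 10 miRNAs were over 5 times the median of the others in this library. They included miR-122 of hepatocytes at 48.5 CPM, 63.7 times the median of the others but close to their highest at 34.8 CPM, and miR-379 and miR-382 at 18.7 and 13.5 times. These were chosen after their values were seen. Of the smooth muscle pair, miR-143 was the highest of the 18 libraries at 1.84 times the median, and miR-145 was at 0.869 times. miR-486 was at 0.680 times the median. In the miR-200 family of epithelium, miR-200a was at 4.27 times and miR-200c at 2.25 times, while miR-200b, miR-429 and miR-141 were at 1.01, 0.978 and 0.508 times. miR-206 and miR-208b, which mark skeletal and cardiac muscle, were not listed in mammary gland. An unlisted miRNA has no value in any library of the tissue, so it is not shown to be absent. This library held 96.5 CPM of unlisted miRNAs, against at most 80.6 CPM in the other mammary gland libraries. A source of miR-1 in this library was not tested.

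**Figure D5:**
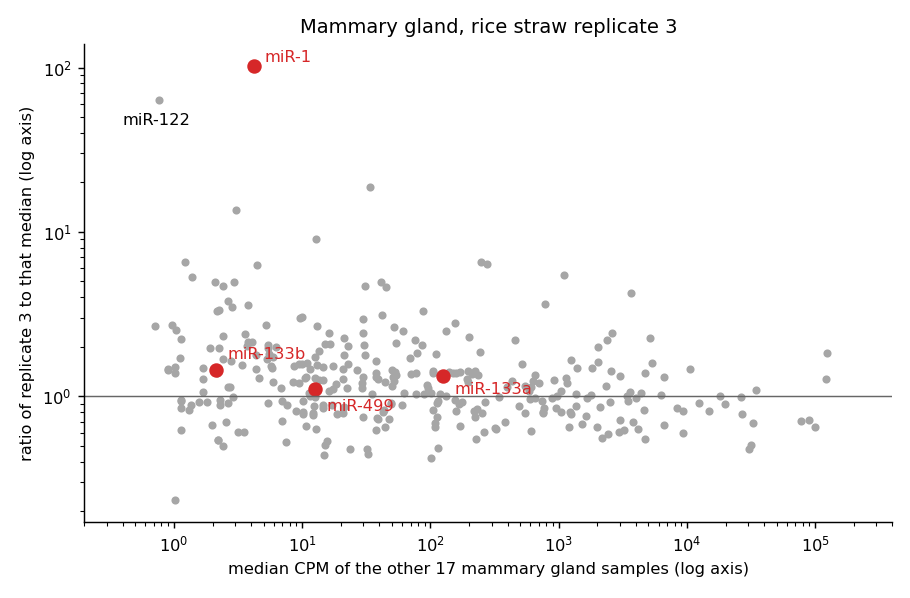
Ratio of mammary gland rice straw replicate 3 to the median of the other 17 mammary gland libraries, on log axes against that median, for 327 of the 328 listed miRNAs with values above 0 on both axes. miR-1 lies at 103 and miR-122 at 63.7, while miR-133a, miR-133b and miR-499 lie between 1.11 and 1.45.

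The forage result for miR-1 in mammary gland turned on this library. With all 18 libraries the adjusted p of the F test was 0.886 (limma). Without replicate 3, miR-1 under corn stover was 1.85 ± 0.44 above rice straw (adjusted p = 0.00798, limma) and the F test gave an adjusted p of 0.0227. Of the 5 rice straw libraries then left, 3 were shallow and held 0, 0.381 and 1.07 CPM of miR-1, from at most 2 reads. Without the 4 shallow libraries but with replicate 3, the difference was -1.16 ± 1.16 (adjusted p = 0.485, limma).

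Rumen alfalfa hay replicate 1 held 12.03 CPM of miR-1 from 51 reads, 9.92 times the median of the other 17 rumen libraries, whose highest was 2.10 CPM. In this library miR-133a was at 60.4 CPM, miR-133b at 2.36 CPM (2.34 times the median of the others) and miR-499 at 21.0 CPM, each exceeded by another rumen library. Besides miR-1, 7 miRNAs were over 5 times the median of the others, with miR-1271 the highest at 35.7 times. At 759 CPM, miR-1271 was close to the highest of the other 17, at 653 CPM. miR-145 of smooth muscle was at 6053 CPM, the highest of the 18 and 2.78 times the median of the others, and miR-143 was 1.16 times that median. The epithelial miR-141 (2.54 times), miR-200a (2.28 times) and miR-205 (1.61 times) were also highest here. Unlisted miRNAs held 106 CPM in this library, against at most 85.5 CPM in the other rumen libraries.

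Whether the members moved together between cows was tested within each tissue, with miR-143 and miR-145 as smooth muscle references. Over 70 relations, 18 passed by Pearson's r and 1 by Spearman's rho after adjustment (permutation tests). The latter was miR-1 with miR-145 in jejunum, which is set out by cluster of libraries for that tissue. Of the 40 relations with a smooth muscle reference 11 passed by r, among them miR-499 with miR-143 in mammary gland at a negative r. Of the 30 between members, 7 passed by r and none by rho, where the smallest adjusted p was 0.0523. Of these 30, r was positive in 29. Other pairs of miRNAs were not examined, so these counts have no background to be set against. miR-133a and miR-133b gave the most frequent relation, with r = 0.58 in rumen (rho = 0.54, adjusted permutation p = 0.0469 and 0.0731), r = 0.69 in jejunum (rho = 0.62, 0.0161 and 0.0533) and r = 0.74 in mammary gland (rho = 0.66, 0.0120 and 0.0523), in each case over 18 libraries. Without the 2 libraries farthest from the median of miR-133a, r was 0.66, 0.44 and 0.64. These 2 miRNAs may also share reads.

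miR-133a and miR-499 in mammary gland gave r = 0.76 and rho = 0.64 (adjusted permutation p = 0.00957 and 0.0523, n = 18), and r was 0.83 without the 2 farthest libraries. Without the 4 shallow libraries r was 0.53 (permutation p = 0.0527, n = 14, unadjusted). Centred on the mean of each forage, r was 0.59 (adjusted permutation p = 0.0348). miR-499 and miR-145 gave r = 0.83 and rho = 0.65 there (adjusted permutation p = 0.00455 and 0.0523, n = 18), and r was 0.42 without the 4 shallow libraries. With miR-143, the other smooth muscle reference, miR-499 went the opposite way in mammary gland. There r was -0.65 and rho -0.67 (adjusted permutation p = 0.0188 and 0.0523), and r was -0.44 without the 4 shallow libraries. Centred on forage, r with miR-143 was -0.33 (adjusted permutation p = 0.302). The relation of miR-133b and miR-499 in mammary gland, r = 0.66, was 0.09 without the 4 shallow libraries.

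In jejunum the miR-1 values form separate clusters by forage, so no r or rho of miR-1 pooled without centring on forage is given. Such pooled relations are still in the counts above, and there the clusters enter them. Over the 12 rice straw and alfalfa hay libraries miR-1 and miR-133a gave r = 0.77 and rho = 0.77 (permutation p = 0.00325 and 0.00471, adjusted 0.0325 and 0.0471 over 10 relations). In the 6 corn stover libraries r was 0.17 and rho 0.37 (exact permutation p = 0.774 and 0.497). miR-1 and miR-145 gave r = 0.66 in the 12 and r = 0.79 in the 6 (adjusted p = 0.0914 by permutation and 0.122 by exact permutation). Their rho was 0.63 in the 12 and 0.94 in the 6 (adjusted p = 0.102 by permutation and 0.0833 by exact permutation), so neither passed within a cluster. Centred on the mean of each forage over 18 libraries, r of miR-1 was 0.67 with miR-145 and 0.63 with miR-133a (adjusted permutation p = 0.014 and 0.0243).

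Over all 90 samples, where differences between tissues set most of the ranking, the members fell into 2 groups by rank. Spearman's rho was 0.73 between miR-1 and miR-133a, 0.80 between miR-1 and miR-133b, and 0.81 between miR-133a and miR-133b, but lay between -0.08 and 0.11 for miR-499 with each of the others. Among 285 other miRNAs listed in all 5 tissues, those ranked most like miR-1 were miR-375 (rho = 0.76), miR-195 (0.75) and miR-425-3p (0.75). miR-133a was most like miR-490 (0.79), miR-150 (0.79) and miR-574 (0.79), and miR-133b most like miR-574 (0.78), miR-490 (0.78) and miR-1388-3p (0.76). For miR-499 they were miR-27a-3p (0.89), miR-23a (0.84) and miR-17-3p (0.82). These values are descriptions over samples that share tissues. Within single tissues rho between miR-1 and miR-375 ranged from -0.64 to 0.28, and that between miR-499 and miR-27a-3p from 0.21 to 0.87.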

How the data were processed

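Small RNA libraries of 90 samples, 5 tissues by 3 forages by 6 replicates, were made and sequenced by the authors, who called bases with CASAVA 1.8 per the submitters' processing notes and aligned trimmed reads to bovine miRBase precursors with sRNAbench, allowing mismatches and several mappings per read. The deposited values are CPM, which the authors scaled to the reads mapped to all annotated miRNAs. The methods describe raw counts, but the values were CPM. The genome build is not given in the sources used here. In all 90 samples 100% of values under 300 steps were whole multiples of 1 step within 0.05 of a step, so reads were recovered from them. No pair of libraries of a tissue was identical. The 90 libraries came from 18 cows with 5 tissues each, and the labels do not say which libraries share a cow, so tissue comparisons took libraries as independent and p-values measure the spread between libraries.

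Groups came from the labels. Tissue pairs and forages were fitted with limma 3.58.1 (trend, R 4.3.3) on log2(CPM + 1), on miRNAs that every tissue of the fit listed and that exceeded 1 CPM in over 50% of the libraries of 1 tissue or more. P-values were adjusted by Benjamini-Hochberg and called under 0.05. Relations used 100000 permutations (scipy 1.17.1). Fits were tested on simulated counts. A sample was called high by Dixon's test in its group of 6 or at 5 times the tissue median. Alternatives were the pseudocount, scaling, filter, edgeR 4.0.16, a replicate block, adjustment over all pairs, leaving out each forage and, added after the data were seen, leaving out the libraries that stood apart and the tissue-by-forage test. The named miRNAs were the 4 members, marker lists and the 3 miRNAs ranked most alike for each member. The members and lists were chosen with earlier results of these data known. No miRNA sequences were used here.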

Additional observations from a re-analysis of the deposited data

Results flagged for a closer look

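Of 60 groups of 6 libraries, 4 held a library far from the others by Dixon's test. About 1 in 20 groups would be marked by chance. These were miR-1 at 429.5 CPM in mammary gland rice straw replicate 3 (nearest 2.41 CPM), miR-1 at 12.03 CPM in rumen alfalfa hay replicate 1 (nearest 1.88 CPM), miR-133a at 247.5 CPM in liver alfalfa hay replicate 1 (nearest 157 CPM) and miR-499 at 7.31 CPM in liver alfalfa hay replicate 2 (nearest 3.85 CPM). Under the other forages liver reached 273 CPM of miR-133a and 4.97 CPM of miR-499.

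The tissue-by-forage term of limma was fitted for each member in every pair of tissues, and passed in 7 of these comparisons. For miR-1 the adjusted p was 0.0265 in jejunum against duodenum, where 20.5% of all miRNAs passed, and 2.16e-05 in liver against jejunum (16%). It was 0.191 in jejunum against rumen. For miR-499 in mammary gland the adjusted p was 0.0388 against rumen (8.58% of all miRNAs), 0.0400 against duodenum (8.68%), 0.0115 against jejunum (26%) and 0.0422 against liver (7.52%). For miR-133a it was 0.0357 in mammary gland against duodenum, and 0.148 without the 4 shallow mammary gland libraries.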

How the results depend on the processing

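Of 853 member values under an alternative, 760 kept their direction and their side of the threshold. Between tissues, scaling moved the median difference over all miRNAs from -0.43 to 0.23 in liver minus rumen, and the share higher among called miRNAs from 35.0% to 57.1%. It also moved that share from 58.8% to 41.0% in jejunum minus duodenum and from 55.3% to 39.2% in mammary gland minus liver (upper-quartile scaling). Differences are on the log2 scale and the causes of the changes were not tested unless the alternative itself shows them.

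For miR-1, liver minus rumen passed under upper-quartile scaling (0.80), TMM scaling (0.54), without alfalfa hay (0.71) and without rumen alfalfa hay replicate 1 (0.51). Mammary gland minus liver missed at 0.95 in the main fit (adjusted p = 0.0508, limma). It passed at the same 0.95 under a mean of at least 10 CPM, under adjustment over all 10 pairs and under the replicate block. It also passed at 3.72 by edgeR (1.16 without rice straw replicate 3), at 1.05 without rice straw and at 1.38 without the 4 shallow libraries. Mammary gland minus rumen missed without corn stover (1.15). Mammary gland minus jejunum missed without alfalfa hay (-1.13) and without the shallow libraries (-0.88), and turned to 0.99 by edgeR. Mammary gland minus duodenum turned to 0.82 by edgeR. Jejunum minus duodenum turned to 0.12 without corn stover.

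For miR-133a, mammary gland minus rumen missed without corn stover (0.39), and jejunum minus duodenum without alfalfa hay (0.31) and without corn stover (0.32). Liver minus duodenum turned to 0.038 under upper-quartile scaling and missed without rice straw (-0.27). Mammary gland minus liver missed by edgeR (-0.52), without rice straw (-0.42), without alfalfa hay (-0.75) and without the shallow libraries (-0.39). In mammary gland, corn stover minus rice straw missed under upper-quartile scaling (0.60), TMM scaling (0.78) and without the shallow libraries (0.79).

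For miR-133b, liver minus rumen missed without corn stover (0.31), and jejunum minus duodenum without rice straw (0.31) and without alfalfa hay (0.31). Mammary gland minus rumen passed under upper-quartile scaling (0.46), TMM scaling (0.49), by edgeR (0.83) and without the shallow libraries (0.62). Mammary gland minus liver passed under upper-quartile scaling (-0.54) and turned to 0.016 without the shallow libraries.

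For miR-499, mammary gland minus rumen missed by edgeR (-0.54, and -0.55 without rice straw replicate 3), without rice straw (-0.38) and without the shallow libraries (-0.32). Mammary gland minus duodenum turned to 0.20 by edgeR, 0.30 without rice straw and 0.37 without the shallow libraries. Mammary gland minus jejunum turned to 0.017, 0.19 and 0.22 under the same settings, and passed at -0.98 without corn stover. By edgeR without rice straw replicate 3 those against duodenum and jejunum were 0.19 and 0.0088. Mammary gland minus liver missed without corn stover (0.51).

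Among the forage tests, miR-499 in mammary gland had adjusted p of 0.0722 with a pseudocount of 0.1 CPM, 0.0572 under upper-quartile scaling, 0.0506 under a mean of at least 10 CPM and 0.0885 by edgeR. Without mammary gland rice straw replicate 3, miR-1 and miR-133a passed there at 0.0227 and 0.0314. Permuting forages gave unadjusted p of 0.0339 for miR-133a in mammary gland, and 0.0199 and 0.0135 for miR-1 and miR-133b in liver. The tissue-by-forage adjusted p was 0.156 for miR-1 in jejunum against duodenum and 0.101 for miR-499 in mammary gland against jejunum without jejunum corn stover replicates 1, 2 and 6, and 0.148 for miR-133a in mammary gland against duodenum without the shallow libraries.

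Counts of called miRNAs moved by over 1.5 times in these cases. Jejunum minus duodenum went from 80 to 41 without alfalfa hay and 38 without corn stover. Forages in rumen went from 5 to 8 under a mean of at least 10 CPM, 3 under the replicate block and 0 without rumen alfalfa hay replicate 1. Forages in liver went from 0 to 1 without liver alfalfa hay replicate 2. Forages in jejunum went from 80 to 35 without corn stover replicates 1, 2 and 6. Forages in mammary gland went from 12 to 0 with a pseudocount of 0.1 CPM and by edgeR, 19 with 5 CPM, 55 under the replicate block, 56 without rice straw replicate 3 and 61 without the shallow libraries. Tissue-by-forage counts without the shallow libraries were 46 against rumen, 66 against duodenum and 60 against liver, and without the 3 jejunum libraries 4 against rumen (from 32), 37 against duodenum, 16 for liver and 6 for mammary gland. Relations called went from 18 to 2 without the 2 farthest libraries.

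Replicate numbers did not establish a pairing across all tissues. Of 18 same-numbered pairs, 14 in duodenum and jejunum had deviations correlated over 0.1 (median 0.178). There 11 correlated best with their own number, and fewer did in the other tissue pairs. The counts expected without a pairing are not given, so shared numbers may still mark the same cow. Under the replicate block no other call of a member changed. Under the mean of at least 10 CPM, 11 of 40 tissue values and 8 of 20 forage values could not be fitted, all those of miR-133b among them. Low read counts limit miR-1 and miR-133b in rumen, liver and the shallow mammary gland libraries.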
